A study of Mus musculus with 14 samples.

Results

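The members described here are 167 genes of 11 developmental transcription factor families, which were taken by symbol from the 24421 genes of the RNA-seq count table. They comprise 44 Fox, 39 Hox, 19 Sox, 14 Nkx, 13 Tbx, 9 Pax, 8 Lhx, 6 Gata, 6 Dlx, 6 Irx and 3 Onecut genes. Of the 167 members, 137 (82.0%) were silent in both photoreceptor types sequenced, meaning under 0.5 CPM (counts per 1000000 counts of the library) in each of the 6 RNA libraries, whereas 45.8% of all genes in the table were silent by the same measure. Open chromatin was taken from the 53204 elements of 200 bp in the ATAC-seq count table, of which 487 lay within 50 kb of a start site of a member. Of the 137 silent members, 43 (31.4%, beside 21.5% of all silent genes) had at least 1 element within 50 kb that was more open in cones than in rods. An element more open in rods was found for 2 (1.46%, beside 6.17% of all silent genes). Among those with any element in that window the cone-open share was 39.1%, beside 36.7% of silent genes, and the rod-open share 1.82%, beside 10.5%. Of the 43 silent members with a cone-open element, 18 were Hox genes, which entered through 5 elements of their clusters. The count of 43 fell to 16 when rod library 1 was left out.

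All cells were sorted from retinas of C57BL/6 mice at 8 weeks of age. Rods carried the Nrl-eGFP reporter, in which GFP marks cells of the rod lineage. Blue cones were the sorted photoreceptors of Nrl-eGFP;NrlKO mice, which lack the rod factor Nrl and carry the same reporter, so that these cells are cone-like photoreceptors of a mutant retina and not native cones. Green cones were native cones of Opn1mw-GFP mice, sorted once (single-sorted) or passed through the sorter again (double-sorted). Rods and blue cones were sorted once. Cell type and number of sorts therefore cannot be told apart where double-sorted green cones are compared with either. The sample sheet of the study, however, lists single-sorted green cone library 1 under the Nrl-eGFP;NrlKO line. The sample label was followed, and single-sorted green cone libraries enter no main test. ATAC-seq, in which a transposase tags accessible DNA, was done on 2 libraries of each of these 4 groups, and RNA-seq on 3 libraries of rods and 3 of blue cones. Retinas of several mice were pooled for a library, and no RNA of green cones was sequenced, so that every statement on silence covers rods and blue cones only.

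Libraries held 18376770 to 26312895 counts in genes for RNA-seq and 1062403 to 5770075 counts in elements for ATAC-seq, with the 2 double-sorted green cone libraries the shallowest. Nrl, the deleted gene, stood at 604, 853 and 749 CPM in rods and at 33.9, 39.2 and 24.4 CPM in blue cones (log2 difference 4.48, standard error 0.20, adjusted p = 1.04e-08). The summed level of 6 rod markers was 75477 to 106614 CPM in rods and 279 to 371 CPM in blue cones. The summed level of 7 cone markers was 560 to 570 CPM in rods and 77564 to 88586 CPM in blue cones, so that both labels matched their markers.

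Members of these families set up the body plan and the cell types of the embryo. Hox proteins give position along the trunk, Pax, Lhx and Sox proteins direct the making of the eye and the nervous system, and Irx, Onecut and Dlx proteins take part in the formation of retinal neurons. In adult tissues most of these genes are kept off by Polycomb proteins, and their loci are flanked by elements that are used in other cells or at earlier stages. A gene can therefore have accessible DNA nearby while none of its RNA is found.

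The following elements carry the main observation, since each is the element with the lowest p in its direction near a silent member, the first 6 in cones and the last 2 in rods. Sequences are of the plus strand of GRCm38, 5′ to 3′, in lower case. Capitals mark a match to a short motif searched on both strands, which is CTAAGCC (a variant of the homeodomain sequence of CRX) near Foxc1, the core of the CTCF motif near Tbx3, and the nuclear receptor sequence AGGTCA near Sox1 and Foxn1, the last 3 read from the minus strand.
Sox2, chr3:34639294-34639493: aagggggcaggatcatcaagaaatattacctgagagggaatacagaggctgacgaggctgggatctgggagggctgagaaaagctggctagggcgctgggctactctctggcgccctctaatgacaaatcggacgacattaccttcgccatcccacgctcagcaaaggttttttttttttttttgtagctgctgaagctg
Irx5, chr8:92336154-92336353: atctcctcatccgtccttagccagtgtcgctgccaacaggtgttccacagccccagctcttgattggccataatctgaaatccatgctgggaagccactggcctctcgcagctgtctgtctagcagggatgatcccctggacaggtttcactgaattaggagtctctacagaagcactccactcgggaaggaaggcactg
Foxc1, chr13:31822919-31823118: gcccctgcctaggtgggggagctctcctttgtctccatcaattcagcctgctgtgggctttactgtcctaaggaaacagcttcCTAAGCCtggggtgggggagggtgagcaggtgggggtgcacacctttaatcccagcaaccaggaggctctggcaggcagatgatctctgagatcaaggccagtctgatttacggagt
Lhx5, chr5:120467189-120467388: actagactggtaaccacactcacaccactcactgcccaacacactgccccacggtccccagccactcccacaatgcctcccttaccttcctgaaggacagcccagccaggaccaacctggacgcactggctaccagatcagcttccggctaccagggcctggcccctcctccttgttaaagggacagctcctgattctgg
Tbx3, chr5:119712942-119713141: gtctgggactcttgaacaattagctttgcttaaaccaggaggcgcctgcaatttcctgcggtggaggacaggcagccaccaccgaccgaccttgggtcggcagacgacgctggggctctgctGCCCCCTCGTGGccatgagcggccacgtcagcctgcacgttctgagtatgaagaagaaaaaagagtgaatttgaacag
Sox1, chr8:12354473-12354672: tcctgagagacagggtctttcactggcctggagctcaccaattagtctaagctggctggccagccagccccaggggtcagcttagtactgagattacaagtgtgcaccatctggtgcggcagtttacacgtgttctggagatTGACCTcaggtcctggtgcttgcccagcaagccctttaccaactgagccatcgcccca
Tbx10, chr19:4032763-4032962: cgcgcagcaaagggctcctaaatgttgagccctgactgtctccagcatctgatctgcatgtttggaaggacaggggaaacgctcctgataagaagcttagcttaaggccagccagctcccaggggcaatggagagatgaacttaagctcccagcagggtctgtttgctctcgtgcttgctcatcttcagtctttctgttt
Foxn1, chr11:78345385-78345584: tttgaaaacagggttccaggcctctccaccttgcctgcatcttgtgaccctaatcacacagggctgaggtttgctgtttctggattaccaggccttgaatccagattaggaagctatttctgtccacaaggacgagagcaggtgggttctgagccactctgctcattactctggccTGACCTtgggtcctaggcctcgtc

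To find which of the families were transcribed, RNA of rods was first compared with RNA of blue cones. Of the 167 members, 94 had no count in any of the 6 libraries, 30 were detected above the limit of silence, and 23 had enough counts to be tested. No tested member was called higher in rods (background over all 12327 tested genes 6.88%), whereas 6 of 23 (26.1%) were called higher in blue cones (background 13.3%). Rod calls also numbered 0 with DESeq2 and at an unadjusted p under 0.05. DESeq2 gave 43 members an adjusted p and called 6 higher in blue cones, which were not the same 6. It called 3 Fox and 0 Onecut genes, where the main test called 2 and 1. Rod and blue cone libraries did not overlap for 13 of the 23 members (56.5%), which is below the 67.1% of all tested genes. The median log2 difference, rods minus blue cones, was -0.04 for the members and 0.01 for all tested genes. Calls required a change beyond a log2 difference of 1 at an adjusted p under 0.05.

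Of the 6 genes, 3 were well expressed in blue cones and nearly absent or low in rods. Foxp4, a forkhead repressor, was at 0.204, 0.263 and 0.168 CPM in rods and at 19.6, 21.8 and 22.8 CPM in blue cones, after scaling by trimmed means (TMM). The difference was -6.64 on the log2 scale (standard error 0.26, adjusted p = 2.27e-09, n = 3 per group). Lhx4, a LIM homeodomain factor known from the pituitary, motor neurons and bipolar cells of the mouse, was at 0.919, 0.842 and 1.29 CPM in rods and at 28.9, 27.6 and 25.7 CPM in blue cones, a log2 difference of -4.78 (standard error 0.21, adjusted p = 9.31e-09). For both genes the blue cone libraries lay close together and far above every rod library. Foxn3, a forkhead repressor of broad expression, was at 5.36, 7.48 and 7.72 CPM in rods and at 36.1, 33.9 and 37.2 CPM in blue cones, a log2 difference of -2.41 (standard error 0.17, adjusted p = 4.93e-06).

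The other 3 genes were low in both cell types and varied more between libraries. Sox11, which promotes neuronal differentiation, was at 0.153, 0.105 and 0.336 CPM in rods and at 4.15, 8.99 and 1.41 CPM in blue cones (log2 difference -4.61, standard error 0.73, adjusted p = 0.00086). Irx6, which takes part in the development of bipolar cells in the mouse, was at 0.306, 0.527 and 1.12 CPM in rods and at 2.48, 4.32 and 7.33 CPM in blue cones (log2 difference -2.88, standard error 0.51, adjusted p = 0.00428). Groups did not overlap for either gene, although blue cone libraries differed among themselves by more than those of Foxp4. Onecut2, a cut homeodomain factor of early retinal neurons, was at 0.102, 0.158 and 0.112 CPM in rods and at 2.56, 0.662 and 0.633 CPM in blue cones (log2 difference -3.34, standard error 0.76, adjusted p = 0.0145). Its call was lost with DESeq2 (adjusted p = 0.0645) and when blue cone 1 was left out (adjusted p = 0.0609), or rod 1 (0.0696), rod 2 (0.0507) or rod 3 (0.0611).

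**Figure D1:**
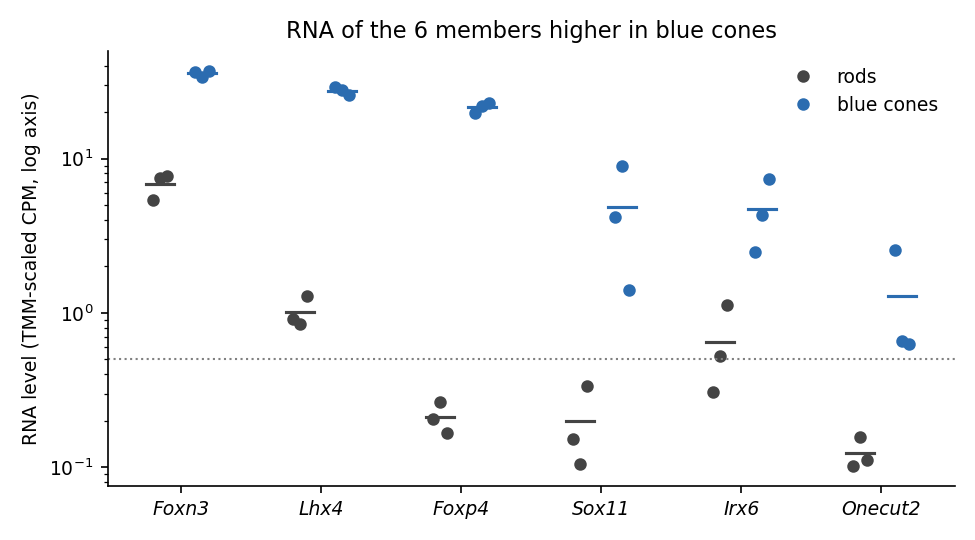
RNA level of the 6 members called higher in blue cones, in TMM-scaled CPM (logarithmic axis). Points are libraries, bars the means of 3. The dotted line marks 0.5 CPM. All 3 blue cone points lie above all 3 rod points for each gene, with the closest groups for Irx6 and Onecut2.

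Several other forkhead genes were detected in both cell types. Per kb of exon, Foxn2 had the highest rod level of all members, 10.6 CPM per kb, against 9.21 CPM per kb in blue cones, where Lhx4 (14.8 CPM per kb) and Foxn3 (13.7 CPM per kb) stood above it. Foxj2, Foxk1, Foxj3, Foxo1, Sox12, Foxp1 and Foxk2 lay between 2.44 and 4.74 CPM per kb in rods and between 1.80 and 3.90 CPM per kb in blue cones. Foxk1, a forkhead repressor that acts on metabolism, was at 31.9, 35.4 and 29.3 CPM in rods and at 19.5, 17.1 and 12.1 CPM in blue cones. Its groups did not overlap, but the log2 difference of 0.96 (standard error 0.18) did not pass the test against a log2 difference of 1 (adjusted p = 0.911).

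Pax6, Sox9 and Sox5, of which the last 2 were chosen after their values were seen, were low and did not pass the test. Pax6, the eye field gene that adult amacrine and ganglion cells keep on, was at 1.07, 2.26 and 2.01 CPM in rods and at 0.155, 1.48 and 0.633 CPM in blue cones (log2 difference 1.21, standard error 0.62, adjusted p = 0.614). Sox9, a gene of Müller glia, was at 0.663, 1.00 and 1.68 CPM in rods and at 1.63, 2.30 and 1.75 CPM in blue cones (log2 difference -0.79, standard error 0.43, adjusted p = 1.00). Both pairs of groups overlapped. Sox5 was at 0.051, 0.684 and 0.224 CPM in rods and at 1.28, 1.40 and 1.15 CPM in blue cones, without overlap, and its log2 difference of -2.01 (standard error 0.64) gave an adjusted p of 0.117.

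Markers of other cells moved between the same libraries. The summed level of 9 bipolar markers was 85.9 to 118 CPM in rods and 1370 to 1592 CPM in blue cones, of which Cabp5 alone made up a mean of 1390 CPM. Cabp5 and Scgn were called higher in blue cones and Prkca higher in rods, while Grm6, Trpm1, Pcp2, Isl1 and Vsx1 were not called. The sum of 9 Müller glia markers was 113 to 184 CPM in rods and 718 to 887 CPM in blue cones. Clu alone made up a mean of 59.4 CPM in rods and 668 CPM in blue cones. Only Clu and Apoe were called, both higher in blue cones. Without a call, the means of Glul, Rlbp1, Aqp4, Dkk3 and Slc1a3 were higher in rods, and those of Vim and Kcnj10 in blue cones. Of 8 microglia markers 4 were called higher in blue cones (sum 3.32 to 5.54 CPM in rods and 20.9 to 41.6 CPM in blue cones). Amacrine markers summed to 107 to 128 CPM in rods and 68.4 to 82.2 CPM in blue cones, almost all of it Slc6a9, with Slc32a1 and Chat at 0. Ganglion cell markers summed to 2.14 to 3.58 CPM and 7.81 to 10.7 CPM, with Pou4f1 called higher in blue cones and Pou4f2 and Thy1 at 0, and horizontal cell markers to 1.32 to 2.97 CPM and 1.12 to 3.68 CPM. The part of other cell types in the RNA differences of the members was not tested, and in bulk libraries fewer cells of a type and less RNA per cell cannot be told apart.

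All 39 Hox genes, all 14 Nkx genes, all 6 Dlx genes and all 6 Gata genes were silent. Of the Hox genes 36 had no count in any library, as had all 6 Dlx and 12 of 14 Nkx genes, and Hoxc5, the Hox gene with the highest level per kb, had 2 counts in all. The 12 silent members with the most cone-open elements are described next. Sox1, Sox14, Lhx5, Irx3, Nkx1-2, Hoxb2 and Hoxd10 had no count in any RNA library, whereas Foxc1 had 1 count, Irx5 4, Lhx1 9, Tbx3 15 and Sox2 24 over all 6 libraries. A count of 0 allows a level of up to 0.112 to 0.168 CPM in a library, from 3 counts and for counting error only.

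Accessibility near the members was then compared between rods and both cone types as a single group, blue and double-sorted green. Of the 487 elements, 470 were tested. Cones were more open at 93 of them (19.8%, background over all 51563 tested elements 18.1%), and rods at 9 (1.91%, background 3.98%), at an adjusted p under 0.1. The share of cone-open elements near members was thus close to that of the whole table. With DESeq2 the counts were 61 and 2. Without rod 1 they were 45 and 2, and without rod 2 they were 46 and 1. Scaling by the read totals given in the study in place of TMM moved the median of all tested elements by 0.45 towards rods, and gave 55 cone-open and 23 rod-open elements, beside 12.6% cone-open over the whole table.

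Against each cone type on its own the picture was alike in direction. Blue cones were more open than rods at 112 of 462 tested elements (background 21%) and rods at 16 (background 6.38%). Double-sorted green cones were more open than rods at 82 of 435 (background 18.7%) and rods at 22 (background 6.43%). The rod libraries are shared by both comparisons. Against green cones the counts rested on single libraries, with 95 elements more open in rods without green cone 4, 3 without rod 1 and 5 without rod 2, and with 41 elements more open in green cones without rod 1 and 42 without rod 2.

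The share of cone-open elements ranged widely between families, and differences between families were not tested. Irx genes, which act in patterning of the neural tube and in bipolar cell subtypes, had 10 of 12 tested elements called (83.3%), the highest share, and Onecut genes had 8 of 16. All 12 tested Irx elements lay near Irx3, Irx5 and Irx6, which are on chromosome 8, and Irx1, Irx2 and Irx4 had none tested. The Irx share therefore describes that region and not the whole family. Lhx genes had 10 of 27 (37.0%), Hox genes 5 of 14 (35.7%) and Sox genes 19 of 82 (23.2%). Fox genes, with the most elements, had 26 of 196 (13.3%), below the background, and Tbx genes had 6 of 48 cone-open and 6 of 48 rod-open. Gata, Pax, Nkx and Dlx genes had 3 of 17, 2 of 18, 3 of 30 and 1 of 10.

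Summed over all its elements, openness of the Irx family was 69.6 and 55.4 CPM in rods, 233 and 247 CPM in blue cones, 318 and 203 CPM in double-sorted green cones and 199 and 201 CPM in single-sorted green cones. Every cone library thus lay above both rod libraries, and blue cones stood 3.84 times and double-sorted green cones 4.17 times over rods. Apart from 1 element near Irx1, all of these elements lay near Irx3, Irx5 and Irx6. For the Hox family the sums were 57.1 and 49.0 CPM in rods, 133 and 137 CPM in blue cones, 140 and 134 CPM in double-sorted and 99.9 and 97.6 CPM in single-sorted green cones. With the read totals of the study the blue cone ratios were 2.67 for Irx and 1.77 for Hox, against 2.55 for Hox with TMM. For Lhx and Onecut genes the blue cone ratios were 1.45 and 1.43, which became 1.00 and 0.994 with those totals, and for Nkx genes the ratio of 1.22 turned to 0.850. Over all 11 families the sums were nearly level, at 0.943 for blue and 0.846 for double-sorted green cones over rods, and at 0.655 and 0.646 with those totals.

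**Figure D2:**
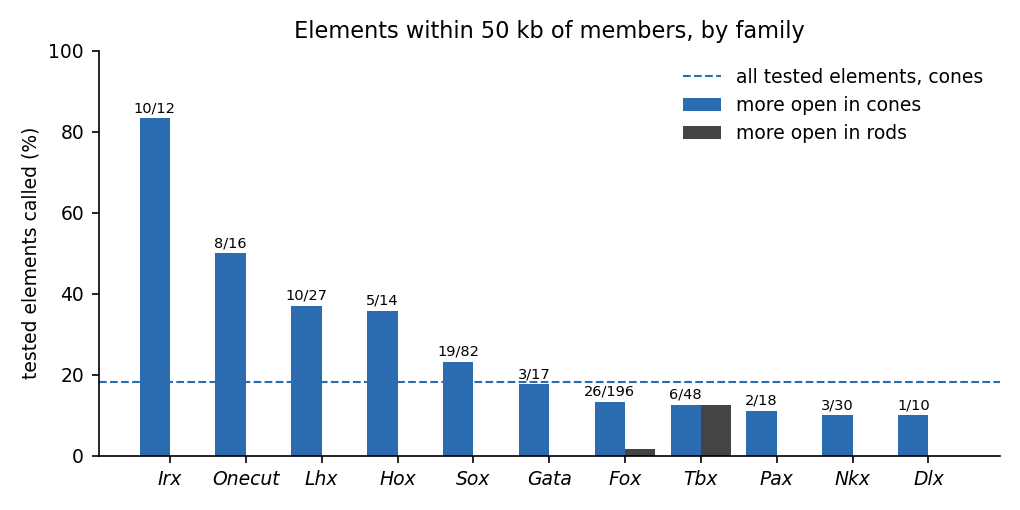
Share of tested elements within 50 kb of members of each family that were more open in cones or in rods (adjusted p under 0.1), with the counts of cone-open and tested elements above the bars. The dashed line is the share of cone-open elements over the whole table, 18.1%. Irx and Onecut lie highest, and Tbx has equal bars for cones and rods.

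Silent members were then taken alone. Of the 281 tested elements near silent members, 47 (16.7%) were cone-open and 4 (1.42%) rod-open, beside 14.7% and 3.29% near any silent gene of the table. Silent members with a cone-open element numbered 43 of 137 (31.4%), beside 21.5% of all silent genes with a start site. A rod-open element was found for 2 (1.46%), beside 6.17% of those silent genes. An element lay within 50 kb of 80.3% of silent members and of 58.6% of silent genes, and of those with an element 39.1% had a cone-open one, beside 36.7% of silent genes. Of the rest, 66 silent members had elements without a call, 27 had no element, and Tbx10 had rod-open elements only. No RNA count at all was found for 32 of the 43, beside 94 of all 137 silent members. The 43 include 18 Hox genes, which entered through 5 elements of their clusters and are not separate loci. Without rod 1 the count of 43 fell to 16. When an element was given only to the gene with the nearest start site, 16 silent members (11.7%) had a cone-open element, beside 9.58% of silent genes.

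Sox2, which maintains neural progenitors and is kept on in Müller glia, lay in a locus that was nearly closed in rods. Summed over its 5 elements, openness was 6.25 and 7.91 CPM in rods, 50.1 and 56.5 CPM in blue cones, 63.7 and 23.4 CPM in double-sorted and 36.1 and 29.2 CPM in single-sorted green cones, and 4 of the 5 elements were cone-open. Tested alone against rods, blue cones were called more open at all 5 and double-sorted green cones at 1. The printed element lay 10602 bp upstream of the start site, inside the transcript Sox2ot. It stood at 1.67 and 1.88 CPM in rods, 13.7 and 17.7 CPM in blue cones, with 28.0 and 14.4 CPM in double-sorted green cones, a log2 difference of rods minus cones of -3.33 (standard error 0.49, adjusted p = 0.00248). Another, 19553 bp upstream, was open in blue cones (15.7 and 9.31 CPM) but at 1.55 and 0 CPM in double-sorted green cones, beside 0.417 and 0.753 CPM in rods.

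Sox1, a marker of neural progenitors and of the lens, had 2 elements and both were cone-open. The printed one, 40947 bp upstream and between genes, stood at 3.75 and 0.753 CPM in rods, 60.0 and 48.1 CPM in blue cones, 59.9 and 42.2 CPM in double-sorted and 29.1 and 39.2 CPM in single-sorted green cones. Every cone library was many times above rods, at a log2 difference of -4.55 (standard error 0.48, adjusted p = 0.000351). Sox14, a gene of the developing diencephalon, also had both of its elements cone-open, with sums of 0.833 and 0.377 CPM in rods, 14.9 and 18.6 CPM in blue cones, with 21.8 and 12.6 CPM in double-sorted green cones. No rod count was found at the Sox14 element 7370 bp downstream of the start site, where cones were at least 8.71-fold higher against a limit of 3 counts per library.

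Irx5, which the mouse uses in OFF bipolar cells, had 4 of 5 elements cone-open. Blue cones and double-sorted green cones, each tested alone against rods, were also called more open at 4. Summed openness was 56.9 and 46.1 CPM in rods, 145 and 141 CPM in blue cones, 231 and 160 CPM in double-sorted and 152 and 163 CPM in single-sorted green cones. Unlike at Sox1, rods held a clear signal here, and 2 of the 4 elements, 1870 bp and 1584 bp upstream of the start site, had 16.6 to 32.3 CPM in rods. The printed element, inside the neighbouring gene Crnde, differed by -2.56 (log2, standard error 0.43, adjusted p = 0.00736), a call that was lost without rod 1 (adjusted p = 0.108). Irx3, a patterning gene of the neural tube, stood at 5 and 1.13 CPM in rods, 17.4 and 21.1 CPM in blue cones, with 31.9 and 18 CPM in double-sorted green cones over its elements. One of the Irx3 elements lay 205 bp from the start site.

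Foxc1, which shapes the anterior segment of the eye, had all 3 elements cone-open. Tested alone against rods, blue cones were called more open at all 3 and double-sorted green cones at 1. Rods held 0 and 0.377 CPM over the 3, whereas blue cones held 25.3 and 21.8 CPM, double-sorted green cones 18.7 and 12.6 CPM and single-sorted green cones 12.2 and 18.2 CPM. The printed element, 16372 bp downstream and inside the gene Gmds, had no rod count and was at 8.28 and 7.26 CPM in blue cones, with 9.33 and 7.19 CPM in double-sorted green cones, so that cones were at least 13.5-fold higher. A further element lay 132 bp upstream of the start site, also without a rod count, and was at least 6.63-fold higher in cones. Foxc1 had a single RNA count in all 6 libraries.

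Lhx5, which acts in hippocampus formation, had all 3 elements cone-open, with sums of 4.17 and 5.27 CPM in rods, 34.8 and 36.3 CPM in blue cones, 43.5 and 53.9 CPM in double-sorted and 28.6 and 35.6 CPM in single-sorted green cones. The printed element, inside the gene Sdsl, differed by -3.86 (log2, standard error 0.58, adjusted p = 0.00229). Lhx1, a gene of horizontal cells, gave another pattern, since 2 of 3 tested elements were cone-open while its sum was 96.2 and 86.0 CPM in rods against 102 and 103 CPM in blue cones. Its element with the lowest p, 14651 bp upstream, rose from 3.33 and 5.27 CPM in rods to 32.7 and 27.2 CPM in blue cones (log2 difference of rods minus cones -2.66, standard error 0.36, adjusted p = 0.00258).

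Tbx3, a T-box gene of the limb and of the dorsal eye, had all 3 elements cone-open. Sums were 6.25 and 6.78 CPM in rods, 53.4 and 48.6 CPM in blue cones, 40.4 and 20.7 CPM in double-sorted and 19.3 and 24.6 CPM in single-sorted green cones. Blue cones were the highest group at this locus, and each cone library lay above both rod libraries. An element 181 bp upstream of the start site held 3.75 and 4.52 CPM in rods against 32.7 and 26.3 CPM in blue cones. The printed element, 41808 bp downstream and between genes, differed by -3.09 (log2, standard error 0.60, adjusted p = 0.011), and this call was lost without rod 2 (adjusted p = 0.117).

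**Figure D3:**
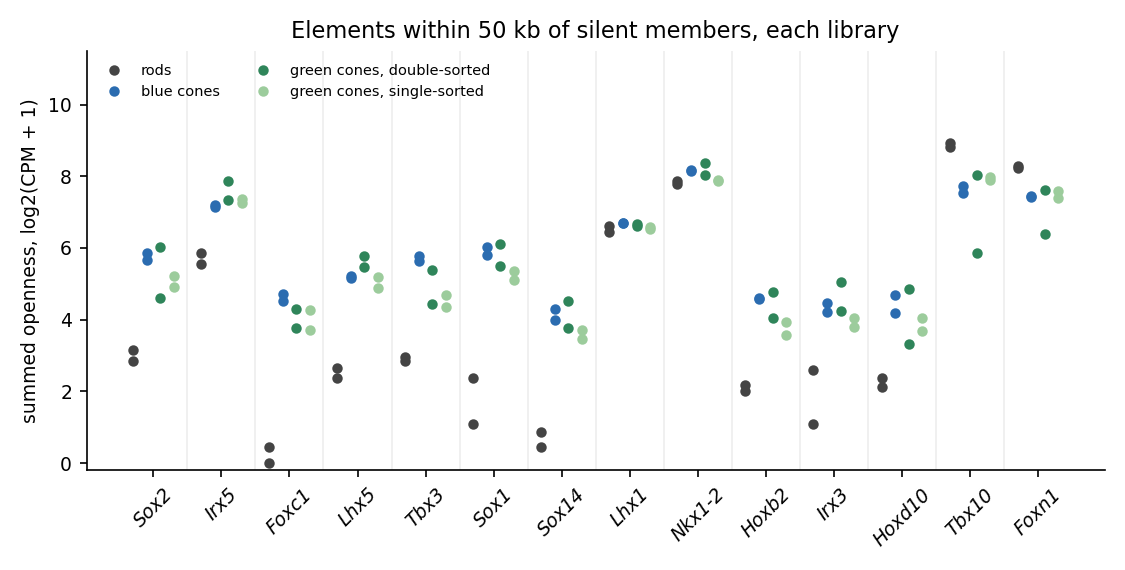
Openness summed over the elements within 50 kb of 14 silent members, as log2(CPM + 1), with a point for each ATAC-seq library of 4 groups. From Sox2 to Hoxd10 the members are those with most cone-open elements, and Tbx10 and Foxn1 are the members with rod-open ones. Rod points lie below all cone points except at Lhx1, where they overlap, and at Tbx10 and Foxn1, where they lie above.

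The Hox clusters are given one by one, and each counts as a single locus because its genes share elements. At the Hoxb cluster 3 of 5 elements were cone-open, with sums of 8.96 and 7.15 CPM in rods, 38.9 and 37.0 CPM in blue cones, 37.3 and 49.4 CPM in double-sorted and 28.1 and 22.8 CPM in single-sorted green cones. At the Hoxd cluster both elements were, with 3.33 and 4.14 CPM in rods, 24.8 and 17.3 CPM in blue cones, 28.0 and 8.98 CPM in double-sorted and 12 and 15.5 CPM in single-sorted green cones. Blue cones tested alone against rods were called more open at both Hoxd elements, and double-sorted green cones at 0. Through the 5 cone-open elements of the Hoxb and Hoxd clusters all 10 Hoxb and 8 of 9 Hoxd genes entered the count of 43 silent members, which is 18 genes. At the Hoxa cluster none of 6 tested elements was called in either direction (0 with DESeq2 and at an unadjusted p under 0.05), although its sums were 37.7 and 31.6 CPM in rods against 67.1 and 73.5 CPM in blue cones. Hoxc had a single tested element, which was not called. The call at the Hoxd element with the lowest p was lost without rod 1 (adjusted p = 0.211) or blue cone 1 (0.112), and that near Hoxb2 without rod 2 (0.129) or with the read totals of the study (0.135).

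Single elements of other silent members behaved alike. Gata6, an endoderm and heart gene, had 1 element, 11286 bp upstream, at 5 and 2.64 CPM in rods, 24.4 and 21.3 CPM in blue cones, with 23.3 and 25.2 CPM in double-sorted green cones. Pax3, a gene of the dorsal neural tube, had 1 element inside the gene, at 0.417 and 0.377 CPM in rods, 5.38 and 5.45 CPM in blue cones, with 14.8 and 17.1 CPM in double-sorted green cones (log2 difference -4.54, standard error 0.83). Green cones were above blue cones there in every library, including the single-sorted ones at 15.6 and 16.9 CPM. Dlx2, a gene of forebrain interneurons, had 1 of 4 elements called, and Nkx1-2 had 2 of 7, with sums of 220 and 233 CPM in rods and 233 to 327 CPM in cones, which nearly touch.

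Rod-open elements near silent members were 4 in number, and in none was the member the gene with the nearest start site. At Tbx10 there were 3, with a locus sum of 449 and 483 CPM in rods, 211 and 184 CPM in blue cones, 56.7 and 262 CPM in double-sorted and 236 and 253 CPM in single-sorted green cones. The printed one, 40110 bp downstream and nearest to Gstp1, stood at 31.9 and 40.1 CPM in rods, 9.11 and 3.18 CPM in blue cones, with 1.55 and 18.9 CPM in double-sorted green cones (log2 difference 2.29, standard error 0.58, adjusted p = 0.0486). Near Foxn1, the gene of thymus epithelium that is mutated in nude mice, the rod-open element lay inside Unc119 and stood at 102 and 102 CPM in rods, 38.5 and 35.2 CPM in blue cones, with 18.7 and 47.6 CPM in double-sorted green cones (log2 difference 1.55, standard error 0.27, adjusted p = 0.0526). Unc119 itself is a photoreceptor gene. Both calls were lost with DESeq2 (adjusted p = 0.425 and 0.334) and without rod 1 (0.164 and 0.196), rod 2 (0.249 and 0.186) or blue cone 2 (0.13 and 0.101). Foxn1 also had a cone-open element, 3725 bp into the gene, and was the only silent member with calls in both directions.

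Detected members, with 0.5 CPM or more in at least 1 of the 6 RNA libraries of rods or blue cones, had cone-open elements as well. Of their 189 tested elements 46 were cone-open (24.3%, background 18.1%) and 5 rod-open (2.65%, background 3.98%). At Lhx4 an element 105 bp upstream of the start site stood at 1.04 and 0.753 CPM in rods, 23.6 and 25.7 CPM in blue cones, 20.2 and 17.1 CPM in double-sorted and 11.7 and 14.6 CPM in single-sorted green cones (log2 difference -4.56, standard error 0.47, adjusted p = 0.000308), and 4 of 6 tested elements were called. Irx6 had 4 of 5 elements called and Foxp4 3 of 8, of which 1 lay 112 bp upstream of the Foxp4 start site at 8.75 and 5.27 CPM in rods against 23.2 and 28.6 CPM in blue cones. All 3 elements of Onecut2 were called, and the one 417 bp upstream of its start site held 2.71 and 6.02 CPM in rods against 77.4 and 69.0 CPM in blue cones. Each of the 6 members higher in blue cone RNA had at least 1 cone-open element and no rod-open one. Of all 30 detected members, 19 had a cone-open element and 3 a rod-open one. Detected members had a median of 7 elements each. These counts, and that of the 6 genes, are given without the same share over all genes and show no excess.

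Large differences in openness also stood beside little or no RNA in detected members. Sox6, a factor of cartilage and interneurons, had 6 of 7 elements cone-open, with sums of 11.2 and 8.47 CPM in rods, 105 and 95.8 CPM in blue cones, with 106 and 80.8 CPM in double-sorted green cones. Its RNA was at 0.153, 0.474 and 1.18 CPM in rods and at 0.543, 1.09 and 0.893 CPM in blue cones, which overlap (log2 difference -0.52, standard error 0.63). Onecut1, a gene of horizontal cells, had 5 of 6 tested elements cone-open, among them one 91 bp upstream of the start site at 2.71 and 1.69 CPM in rods, 31.5 and 26.1 CPM in blue cones, with 43.5 and 27.8 CPM in double-sorted green cones. The RNA of Onecut1 was 0 in every rod library and at 0.465, 0.0778 and 0.707 CPM in blue cones, too low to be tested. Foxo6, a forkhead gene of neurons, had 4 of 7 elements cone-open and RNA at 0.051, 0 and 0 CPM in rods and at 0.349, 0.895 and 1.08 CPM in blue cones.

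The other rod-open elements belonged to Tbx6, Foxn2 and Foxo3. Near Tbx6, a gene of the paraxial mesoderm, 3 elements were rod-open. The one 44683 bp away, inside Tlcd3b, stood at 114 and 123 CPM in rods, 17.0 and 16.6 CPM in blue cones, 8.55 and 32.3 CPM in double-sorted and 49.1 and 37.4 CPM in single-sorted green cones (log2 difference 2.72, standard error 0.32, adjusted p = 0.00124). All 3 were nearest to Aldoa or Tlcd3b and not to Tbx6, whose RNA was at 0.504 to 1.11 CPM in rods and 0.623 to 1.86 CPM in blue cones.

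The test between green and blue cones made no call at these elements. Of 417 tested elements none was called in either direction by edgeR (background 0.0374% more open in green and 0.00234% in blue cones) or by DESeq2, and 13 and 9 had an unadjusted p under 0.05. Without green cone 4, 8 elements were called more open in green and 19 in blue cones. Without green cone 3 the counts were 4 and 4, and without blue cone 2 they were 1 and 0. A missed call with 2 libraries a group does not show that the cone types are alike.

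The test of rods against cones left out single-sorted green cones. At 46 of the 47 cone-open elements near silent members (97.9%), both single-sorted libraries lay above both rod libraries, as at 97.8% of all cone-open elements of the table. Single-sorted green cones tested alone against rods were called more open at 36 of the 47 (76.6%), and at 81.3% of all cone-open elements. The line of single-sorted library 1 is given differently by its label and the sample sheet, and the same values were therefore taken from library 2 alone, a choice made after seeing the data. Library 2 lay above both rod libraries at 46 of the 47 (97.9%, beside 98.3% of all cone-open elements). Tested alone, with its spread taken from the rod libraries, it was called at 23 of the 47 (48.9%, beside 58.8%). The rod libraries are shared by these tests and by the one that chose the 47.

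Most of the cone-open elements near silent members lay more than 1 kb from a start site. Within 1 kb of a start site 3 of 25 tested elements (12%) were cone-open, beside 18.3% near any silent gene. Between 1 and 5 kb the share was 8 of 26 (30.8%, beside 18.1%), between 5 and 20 kb 17 of 83 (20.5%, beside 13.9%), and between 20 and 50 kb 19 of 147 (12.9%, beside 13.9%). The median log2 difference of rods minus cones was -0.82, -1 and -0.65 in the 3 classes up to 20 kb. Within 20 kb 28 of 134 elements were cone-open and 1 rod-open, and beyond it the median near members was 0.08, beside 0.04 near any silent gene.

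**Figure D4:**
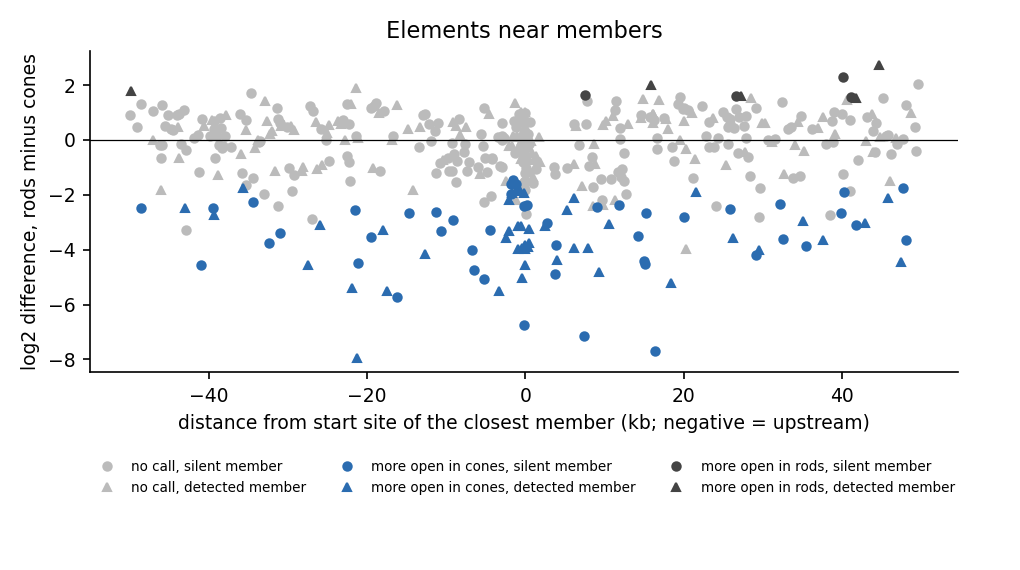
Log2 difference of openness, rods minus cones, of each tested element near members against the distance of its midpoint from the start site of the closest member, in kb with upstream negative. Circles are elements near silent and triangles near detected members, and colour gives the call. Elements without a rod count have fitted differences that depend on the prior count. Cone-open elements lie on both sides over the whole window, and 8 of the 9 rod-open ones lie downstream.

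**Figure D5:**
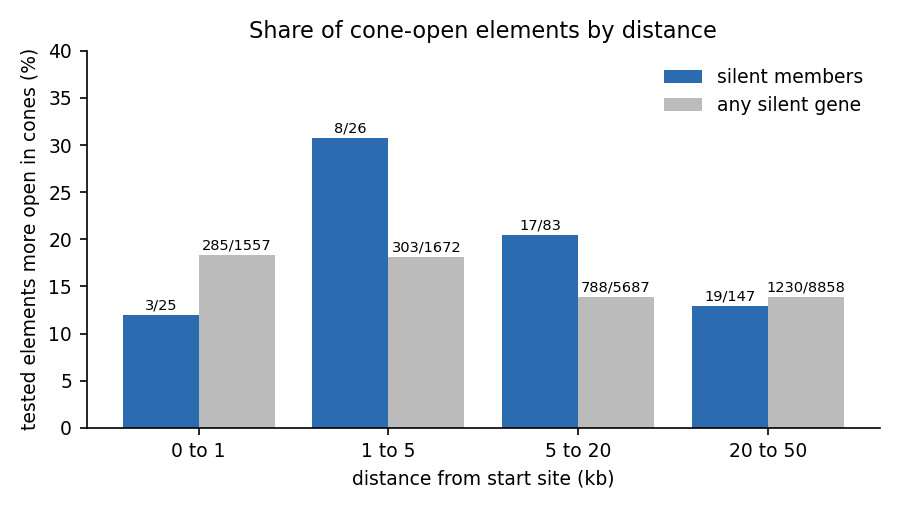
Share of tested elements more open in cones by distance from the start site, near silent members and near any silent gene of the table, with counts of cone-open and tested elements above the bars. Members lie above all silent genes between 1 and 20 kb and below them within 1 kb and beyond 20 kb.

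Of the 47 cone-open elements near silent members, 7 lay inside the member, 17 inside another gene and 23 between genes. The member had the nearest start site in 19 (40.4%), beside 84 of all 291 elements near silent members (28.9%). By number of elements the share of silent members with a cone-open one varied, which was not tested. With 1 or 2 elements 29 of 51 (56.9%) did, beside 39.5% of silent genes, and with 3 to 5 elements 11 of 40 (27.5%) did, beside 36.1%. Many of the 51 are Hox genes that share the same elements.

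The letters of the elements were searched for short motifs on both strands, as a description. CTAAGCC was in 9 of the 47 cone-open elements near silent members (19.1%), in 4.92% of the other elements near silent members, in 6.85% of all cone-open elements and in 5.61% of all 53204 elements, all of the same length. CTAATCC, the homeodomain sequence of CRX and OTX2, was in 4.26% of the 47 and in 10.4% of all cone-open elements. The CTCF core was in 8.51% and 1.98%, AGGTCA in 12.8% and 17.3%, the bZIP sequence TGANTCA in 10.6% and 9.85%, and TGCTGAC, a MAF sequence of NRL, in 6.38% and 4.52%. TAATTA, a homeodomain sequence of RAX and others, was in 4.26% and 8.69%. CATATG, a sequence of bHLH factors such as NEUROD1, was in none of the 47 and in 3.69% of all cone-open elements. In the other elements near silent members the shares were 5.74% for CTAATCC, 4.51% for the CTCF core, 12.7% for AGGTCA and 4.51% for TGANTCA. They were 3.69% for TGCTGAC, 4.51% for TAATTA and 2.46% for CATATG. In the printed elements of Sox2, Irx5, Lhx5 and Tbx10 no motif was found, which says only that these letters are not in these windows. Median GC content was 56.5% in the 47 elements, 58.25% in the other elements near silent members and 49.5% in all cone-open elements. The median ratio of observed to expected CpG was 0.436, 0.574 and 0.265 in the same order. The 47 were thus lower in both than the other elements near silent members.

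The peak lists, called per cell type on pooled replicates, gave a second readout of open chromatin from the same libraries. A peak summit lay within 1 kb of the start site of 8 silent members in rods (5.84%), 19 in blue cones (13.9%), 12 in double-sorted (8.76%) and 15 in single-sorted green cones (10.9%). The shares of all silent genes were 6.35%, 9.98%, 8.13% and 9.14%. Within 50 kb a summit was found for 66 silent members in rods (48.2%, beside 42.8% of silent genes), 104 in blue cones (75.9%, beside 54.2%) and 97 in double-sorted green cones (70.8%, beside 53.9%). Lists were not cut at the same level, since the lowest −log10 q was 36.0 in the rod list and 15.3 and 8.98 in those of blue and double-sorted green cones, so that a missing rod peak is not the same as closed chromatin. Start sites of Foxd2, Irx3, Lhx2, Sox13, Sox2 and Tbx3 had a peak in both cone lists and not in rods, those of Dlx1, Foxa3, Foxm1, Hoxa10 and Sox4, among others, in all 3 lists, and none had one in rods alone. For 118 silent members no list of the 3 had a peak there. In the test of rods against cones, the elements within 1 kb of the start site were cone-open at Irx3 and Tbx3. Those at Foxd2, Lhx2, Sox13 and Sox2 were not called.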

How the data were processed

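Members and gene lists were chosen with earlier results of these data known. ATAC-seq was measured in 8 libraries and RNA-seq in 6, grouped by the sample labels. Per the methods and the submitters' processing notes, the authors aligned ATAC-seq reads to GRCm38 with Bowtie2 2.2.3, filtered them with SAMtools 1.3 and Picard 1.121, kept short inserts and called peaks with MACS2 2.1.0, and aligned RNA-seq reads with STAR 2.4.2a and counted them with HTSeq 0.6.1p1. HOMER 4.8 and bedtools 2.24.0 are also named. The deposited tables hold raw counts per gene and per 200 bp element. Reads without a gene, 41.3% to 49.2% of an RNA-seq library, were not used. Each deposited peak has a MACS2 score, a fold enrichment (a ratio) and a −log10 q from the authors, and summits and −log10 q were used here.

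Whole tables were fitted with edgeR 4.0.16 (TMM, filterByExpr, quasi-likelihood) and tested with glmTreat against a log2 difference of 1, with Benjamini-Hochberg adjustment over all features tested. The adjusted p had to be under 0.05 in RNA-seq, and under 0.1 in ATAC-seq. Fold thresholds and groups follow the methods of the study, which used DESeq2. DESeq2 1.42.0 was run as an alternative. Fits were tested on simulated data. Printed CPM is scaled by TMM, and for ATAC-seq is relative to all counts in elements. With 2 ATAC-seq libraries a group, p-values measure the spread between those libraries only, and labels name no separate animals. All 167 members matched a symbol of the RefSeq annotation of GRCm38, and an element belongs to every member with a start site within 50 kb of its midpoint. Named were Nrl, every member called in RNA-seq, the 12 with the highest level per kb, the 12 silent members with most cone-open elements, the silent members with rod-open elements, and of each family the member with the highest RNA level and that with most cone-open elements. Foxb1 and Foxd2, and other names outside this rule, were chosen after their values were seen. Of the members named by level alone, Gata1 had 10 counts and Dlx6 had 0. A few genes are not reported here. Alternatives changed the tool, normalization, filter, window, limit of silence and green cone libraries, and left out each library in turn. Python 3.11.15 with pandas 2.3.3, numpy 2.4.6, pysam 0.24.0 and matplotlib 3.10.9 was used.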

Additional observations from a re-analysis of the deposited data

How the results depend on the processing

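In RNA-seq, 6 to 8 members were higher in blue cones and 0 in rods under every alternative run, and each replicate left out in turn also gave 6 to 8. For elements near members in rods against cones, leaving out each library in turn gave 45 to 96 cone-open and 1 to 11 rod-open ones, in rods against blue cones 75 to 106 and 12 to 17, in rods against green cones 41 to 92 and 3 to 95, and in green against blue cones 0 to 8 more open in green and 0 to 19 more open in blue cones. Cone-open counts were 61 with DESeq2, 55 with the read totals of the study, 59 within 20 kb and 168 within 100 kb, and rod-open counts were 2, 23, 2 and 25, and 5 with single-sorted green cones. In rods against blue cones these 4 settings gave 67, 67, 70 and 186 blue cone calls and 4, 25, 7 and 41 rod calls. In rods against green cones they gave 32, 46, 51 and 149 elements more open in green cones and 2, 42, 8 and 45 in rods, and 6 in rods with single-sorted libraries. In green against blue cones, single-sorted libraries gave 4 and 1 elements, single-sorted library 2 alone, added after seeing the data, 5 and 2, and the read totals 1 in green cones. The median of all tested elements moved with those totals by 0.53 in rods against blue, 0.42 in rods against green and 0.13 in green against blue cones. Silent members with a cone-open element were 24 within 20 kb, 16 by the nearest start site, and 16 to 47 with a library left out. They were 35 to 53 under the other alternatives except 63 within 100 kb, where the window holds more elements. Silent members with a start site peak in double-sorted green cones were 19 within 2 kb. With read totals, summed openness over all families was 0.655 and 0.646 of rods in blue and double-sorted green cones. The cause of these changes was not tested beyond what the settings themselves change.

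Replicate numbers did not pair the libraries, since the correlations of same-numbered deviations were 0.133, 0.055 and 0.026 in RNA-seq and 0.027 in ATAC-seq. With the replicate number as a block, 6 members were higher in blue cones, and the elements called in rods against blue cones numbered 104 for blue cones and 17 for rods. Of 170 values for the RNA of named members under an alternative 5 lost their call, all for Onecut2, and of 168 values for named elements 15 did. None reversed. Double-sorted green cone libraries limit the depth, as 3 counts there amount to 2.33 and 2.69 CPM, beside 0.565 to 1.37 CPM in the other ATAC-seq libraries.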

Other observations

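Of 82 listed genes of the Pou, Meis and related families, 51 were silent in all 6 RNA-seq libraries and 15 of these had a cone-open element within 50 kb, beside 21.5% of all silent genes. Of the 27 listed genes that were tested, 10 were higher in blue cones (background 13.3%) and 1, Olig3, in rods (background 6.88%). Six6, a factor of eye development, was at 1.22, 1.95 and 1.73 CPM in rods and at 205, 235 and 234 CPM in blue cones, without overlap. Of 28 Polycomb genes, which keep developmental genes off, all were tested, Jarid2, Phc2 and Phc3 were higher in rods (3 of 28, background 6.88%) and Cbx7 in blue cones (1 of 28, background 13.3%). Jarid2 was at 221, 248 and 268 CPM in rods and at 97.0, 92.7 and 84.6 CPM in blue cones (log2 difference 1.40, standard error 0.12, adjusted p = 0.00375).

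An element 21176 bp upstream of the silent gene Foxb1, chosen after its values were seen, was at 18.2 and 14.1 CPM in blue cones. It was at 0.417 and 0.377 CPM in rods, 3.11 and 0 CPM in double-sorted and 0.488 and 0 CPM in single-sorted green cones, and was not called between green and blue cones. In the test of rods against both cone types together it was called more open in cones (adjusted p = 0.0321), so that it is among the 47. Against double-sorted green cones alone no element near Foxb1 was called. A cone-open call can thus rest on the blue cone libraries.

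Each ATAC-seq group had 2 libraries, and RNA of green cones was not analysed here. No link from an element to the gene it acts on was measured, and 34 elements lay within 50 kb of several members. RNA levels near 0 were measured in pooled sorted cells and not in single cells.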
